A study of Homo sapiens with 12 samples.

Results

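The change between 24 and 48 h of vemurafenib in MMACSF cells was measured by comparing the 2 libraries treated for 48 h with the 2 treated for 24 h. These are 4 of the 12 libraries of the experiment, and 12046 of the 23273 genes listed were compared, those with a mean of 1 FPKM or more in either group once 1607 small RNA genes were left out. FPKM is a fragment count divided by transcript length and scaled for the size of the library, so levels of different genes may be set side by side. MMACSF is an established human melanoma line with mutant BRAF, and vemurafenib is a RAF inhibitor, here at 0.2 μM. The cells were grown in medium with serum and were treated on the day after seeding. Beside the drug-treated libraries stand 2 under DMSO, for which the labels state no time. The second line of the experiment, COLO858, is also a BRAF-mutant melanoma line and was treated at the same dose and times, again with 2 libraries per group. By the study's methods each line was plated as 2 replicates, and neither they nor the labels say that these were separate experiments, so p-values measure only the spread between these plates.

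In melanoma cells with mutant BRAF, the kinase drives ERK continuously, and ERK in turn keeps up the transcription of feedback inhibitors, ETS factors, and cyclin D1. When the kinase is inhibited, cells leave the cycle in G1, and the E2F-driven genes of DNA replication and the later genes of mitosis are no longer transcribed. Mitotic genes are commonly regulated by the DREAM and MYB-FOXM1 complexes, which act through the cell cycle homology region, or CHR. The CHR lies close to the start site, and CCAAT boxes often lie nearby. Cytokines of the interleukin-6 family act through STAT3 on acute-phase and complement genes, and MHC class II genes depend on the transactivator CIITA.

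The libraries carried the markers of the melanocyte lineage. Whether these markers tell MMACSF from COLO858 was not tested. Of 21 melanocyte lineage genes, 0 were under 1 FPKM in all 6 MMACSF libraries, and their summed level was 12250 to 12780 FPKM under DMSO, 17550 and 19020 at 24 h, and 18750 and 19750 at 48 h. The largest single part was PMEL, at 7947 and 7940 FPKM under DMSO, 10313 and 11001 at 24 h, and 11366 and 11738 at 48 h. Of the keratinocyte markers, 8 of 9 were under 1 FPKM in all 6 libraries, as were 7 of 10 leukocyte markers and 7 of 9 endothelial and fibroblast markers. KRT5, CD3E, and CD14 were listed at 0 throughout. The summed fibroblast and endothelial markers, almost all of it LUM, were at 42.6 and 51.4 FPKM at 24 h and 19.8 and 28.6 at 48 h, and the summed leukocyte markers, nearly all CD68, went from 51.6 and 60.5 to 78.4 and 84.2. Depth is not given. From the value that a single read appears to have in low genes, the 24 h libraries were the shallowest, with 0.756 and 0.491 times the reads of the first DMSO library, against 1.24 and 0.886 times at 48 h. Replicates correlated at 0.974 at 24 h and 0.984 at 48 h on the log2(FPKM + 1) scale, on which all changes below are given.

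Most genes changed little between the 2 times. The median change over all genes tested was -0.02, and 94.3% of genes stayed within 0.5. Of the rest, 97 genes had a change of -1 or below and 24 a change of 1 or above. At an adjusted p below 0.01 in limma, 17 genes fell (0.141% of those tested) and 1 rose (0.0083%). At 0.05 the numbers were 52 (0.432%) and 3 (0.0249%). When the replicate number shared by the groups was entered as a block, 187 genes fell (1.55%) and 60 rose (0.498%), including all 18 called without it. The block takes out a shift between libraries numbered 1 and 2 that the DMSO, 24 h, and 48 h groups share. The DMSO libraries thus enter both this shift and the estimate of the spread. With the block and only the 4 libraries compared, 0 genes fell and 0 rose. What the replicate number pairs is not stated, so results with and without the block are given throughout. A gene that passed only with the block is named as such.

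**Figure D1:**
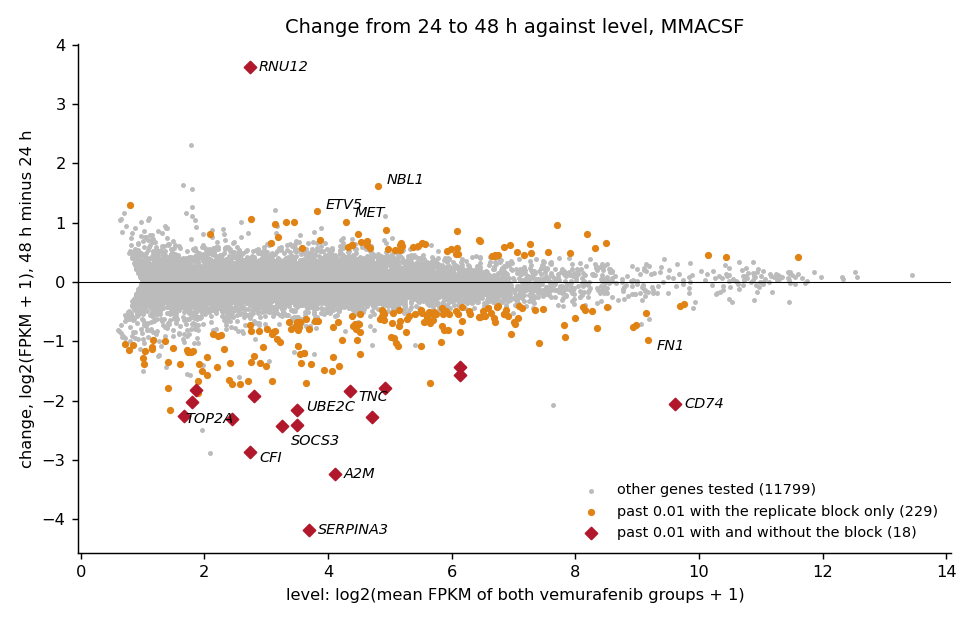
Change from 24 to 48 h on the log2(FPKM + 1) scale (vertical axis) against level, the log2 of the mean FPKM of both vemurafenib groups plus 1 (horizontal axis), for the 12046 genes tested in MMACSF. Red diamonds are the 18 genes past an adjusted p of 0.01 with and without the block, orange points those past it with the block only, and most of both lie below 0.

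Mitotic genes were 3 of the 17 genes that fell without the block and 33 of the 187 that fell with it. Lists of mitotic genes had medians far below that of all genes, with -1.04 for 19 kinesins and spindle proteins, -0.89 for 24 mitotic kinases, cyclins, and regulators, and -0.84 for the 52 tested members of a G2/M list. Of the last, 2 fell without the block and 22 with it, and 49 had a negative change. The lists share members. Of the 94 distinct genes in these and in a kinetochore list, 3 fell without the block, 33 with it, and 69 had both 48 h libraries below both 24 h libraries, against 17.7% of all genes tested.

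TOP2A (chr17:38544777-38574148 in GRCh37, minus strand), the topoisomerase that untangles chromosomes before they separate, was at 54 and 70.4 FPKM under DMSO, 7.01 and 9.11 at 24 h, and 0.654 and 1.01 at 48 h. It fell by 2.30 ± 0.21 (SE) from 24 to 48 h (adjusted p = 0.00768, and 0.000155 with the block). The 3 groups did not overlap. In absolute FPKM most of the loss had already taken place at 24 h, while the second step was a 9.68-fold fall of the group mean. UBE2C (chr20:44441215-44445596, plus strand), the ubiquitin-conjugating enzyme of the anaphase-promoting complex, went from 168 and 169 FPKM under DMSO to 18.8 and 16 at 24 h and 3.59 and 2.64 at 48 h. The second step was a fall of 2.17 ± 0.17 (adjusted p = 0.00416, and 0.000279 with the block). KIF20A (chr5:137514408-137523412, plus strand), a kinesin of the central spindle in cytokinesis, had 15.4 and 16.5 FPKM under DMSO, 4.29 and 4.92 at 24 h, and 0.396 and 0.365 at 48 h. It fell by 2.02 ± 0.16 (adjusted p = 0.00537, and 0.000682 with the block). These were the only mitotic genes past the threshold without the block, and the highest of them at 48 h was UBE2C.

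Many others passed only with the block. CDC20, the activator of the anaphase-promoting complex, was at 7.99 and 6.72 FPKM at 24 h and 1.76 and 1.3 at 48 h, and fell by 1.73 ± 0.17 (adjusted p = 0.012, and 0.000729 with the block). NUSAP1, which binds spindle microtubules, went from 8.45 and 7.78 to 1.43 and 2.16 FPKM, a change of -1.72 (adjusted p = 0.0191, and 0.00145 with the block). FOXM1, the transcription factor of the G2/M program, went from 9.2 and 9.76 to 3.68 and 4.18 FPKM, a change of -1.09 (adjusted p = 0.0417, and 0.0012 with the block). MYBL2, the MYB protein of the same program, changed by -1.11, and the cyclins CCNB2 and CCNB1 by -1.41 and -1.01. Further falls with the block were those of TPX2 (-1.67), BIRC5 (-1.57), ANLN (-1.65), HMMR (-1.78), PBK (-1.67), and FAM64A (-1.88). The proliferation marker MKI67 was at 1.04 and 1.37 FPKM at 24 h and 0.043 and 0.0852 at 48 h, and fell by 1.05 with the block only (adjusted p = 0.00788, and 0.0755 without it). The kinetochore list had a median of -0.27, and 4 of its 25 tested members fell with the block, namely BUB1 (-1.35), BUB1B (-1.13), CENPF (-1.37), and NDC80 (-1.14). Because 1 FPKM was added before the logarithm, changes of genes under about 1 FPKM are understated.

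The promoters of 5 of these genes are shown for the CCAAT box and the CHR, the elements by which mitotic genes are usually recognised. Each is the 150 bases before the RefSeq start site in GRCh38.p14, 5′ to 3′ on the strand of the gene. Capitals mark CCAAT or its complement ATTGG, and the CHR in its forms TTTGAA and TTTAAA, searched on both strands.
TOP2A (chr17:40417897-40418046, minus strand): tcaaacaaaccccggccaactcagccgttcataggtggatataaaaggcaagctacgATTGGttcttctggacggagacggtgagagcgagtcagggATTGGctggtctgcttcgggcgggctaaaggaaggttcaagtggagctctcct
KIF20A (chr5:138178962-138179111, plus strand): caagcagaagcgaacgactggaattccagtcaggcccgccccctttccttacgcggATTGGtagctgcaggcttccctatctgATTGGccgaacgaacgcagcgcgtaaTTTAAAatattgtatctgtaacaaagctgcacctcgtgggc
CDC20 (chr1:43358831-43358980, plus strand): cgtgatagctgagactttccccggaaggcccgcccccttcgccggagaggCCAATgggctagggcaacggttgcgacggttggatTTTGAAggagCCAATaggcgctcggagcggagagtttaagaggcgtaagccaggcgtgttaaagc
CCNB2 (chr15:59104996-59105145, plus strand): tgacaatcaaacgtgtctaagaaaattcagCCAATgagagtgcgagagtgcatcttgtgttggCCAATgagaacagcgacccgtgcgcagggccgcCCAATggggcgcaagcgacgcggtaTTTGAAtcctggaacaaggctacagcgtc
NUSAP1 (chr15:41332731-41332880, plus strand): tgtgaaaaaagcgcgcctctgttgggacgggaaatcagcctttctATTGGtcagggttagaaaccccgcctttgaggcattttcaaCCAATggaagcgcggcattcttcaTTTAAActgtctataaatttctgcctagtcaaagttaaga
All 5 held at least 2 CCAAT boxes. In CDC20 and CCNB2 a TTTGAA lay 65 and 29 bases before the start, and in KIF20A and NUSAP1 a TTTAAA lay 41 and 40 bases before it, while neither form was found in these 150 bases of TOP2A. In the whole window of 250 bases before to 50 after the start, TTTGAA was present in 69.0% of the 42 G2/M genes with a window (of 52 tested), in 15.4% of all 27305 promoters, and in 9.44% of the 9485 genes tested that had a window. For CCAAT the 3 shares were 69.0%, 35.7%, and 37.0%. CCAAT was as frequent in the S phase list treated below, in 70.4% of the 27 genes with a window (of 36 tested). TTTGAA was in 7.41% of those 27. TTTAAA was in 26.2% of the G2/M promoters, 12.3% of all, and 7.36% of those tested. The E2F sites TTTCGCGC, TTTGGCGC, TTTCCCGC, and TTTGCCGC were in 7.14%, 3.33%, and 5.44%, and the AP-1 site TGANTCA in 2.38%, 7.76%, and 4.12%. The E-boxes CACGTG and CATGTG were in 7.14% and 2.38% of the G2/M promoters, against 7.43% and 11.2% of all and 10.5% and 6.49% of those tested. A match to TTTGAA is never a match to TTTAAA, so those counts are of separate sites. For the 17 genes that fell without the block, 13 had a window (76.5%), too few for a share to be meaningful. Of the 187 genes that fell with the block, 144 had a window (77.0%), of which 29.2% held TTTGAA and 53.5% CCAAT. Outside the mitotic lists, 120 of 154 such genes had a window, with shares of 20.0% and 48.3%. The 60 genes that rose with the block had a window in 85.0%, of which 9.80% held TTTGAA and 21.6% CCAAT. Among the genes tested these shares were 9.44% and 37.0%.

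DNA replication genes lay nearer to the median of all genes. The 36 tested members of an S phase list had a median change of -0.11, and in limma 0 of them passed the threshold with or without the block. At an unadjusted p below 0.05, 2 were lower without the block, and with it 7 were lower and 2 higher. The 34 tested genes of a list of replication genes and E2F factors also had a median of -0.11, and 1 of them fell with the block. This was TK1, thymidine kinase, at 6.6 and 4.95 FPKM at 24 h and 1.51 and 1.46 at 48 h (change -1.44, adjusted p = 0.0366, and 0.00145 with the block). MCM2, a subunit of the replicative helicase, was at 19.1 and 18.6 FPKM under DMSO, 5.25 and 5.97 at 24 h, and 6.34 and 6.1 at 48 h. PCNA, the sliding clamp, was at 64.5 and 65.9 under DMSO, 21.6 and 20.0 at 24 h, and 20.2 and 17.4 at 48 h. Both were well below DMSO at each time, and their 24 to 48 h changes of 0.13 and -0.14 did not pass the threshold. TYMS, thymidylate synthase, had the lowest change of the S phase list at -0.65 ± 0.15 (adjusted p = 0.224, and 0.011 with the block), and CDCA7 the highest at 0.39. Among 15 G1 cyclins and CDK inhibitors 0 passed in limma, and at an unadjusted p below 0.05 with the block 1 was higher and 3 were lower. CCND1, cyclin D1, had 21 and 18.8 FPKM at 24 h and 26.6 and 28.3 at 48 h (change 0.45, adjusted p = 0.0291 with the block), far under its DMSO level of 168 and 184.

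**Figure D2:**
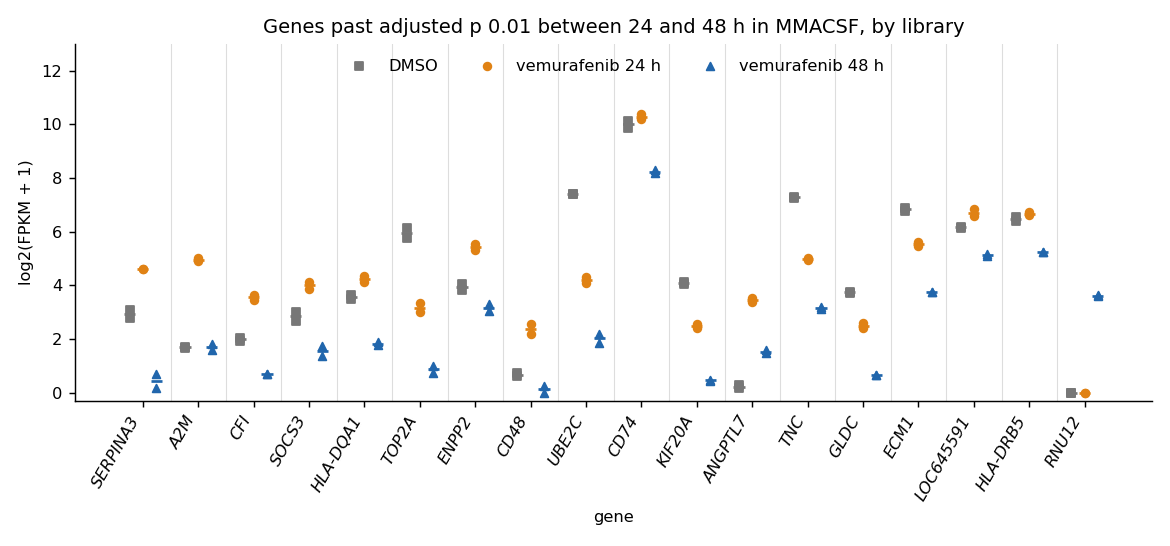
Level, as log2(FPKM + 1) on the vertical axis, of the 18 genes past an adjusted p of 0.01 (horizontal axis, ordered by change) in each of the 6 MMACSF libraries; points are libraries and short lines group means. At 24 h, SERPINA3, A2M, CFI, and SOCS3 lie above DMSO, whereas TOP2A, UBE2C, KIF20A, TNC, ECM1, and GLDC lie below it. The genes were picked for their change from 24 to 48 h, and positions against DMSO were not counted over all genes tested.

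Of the genes that fell without the block, SERPINA3, A2M, CFI, and SOCS3 had their highest levels at 24 h. They belong to no list and are set side by side after their values were seen. SERPINA3 (chr14:95078721-95090392 in GRCh37, plus strand), the acute-phase protease inhibitor alpha-1-antichymotrypsin, was at 7.58 and 5.82 FPKM under DMSO, 23.5 and 23.4 at 24 h, and 0.137 and 0.602 at 48 h. It fell by 4.18 ± 0.22 (adjusted p = 0.00102, and 0.000307 with the block). A2M (chr12:9220260-9268825, minus strand), the broad protease inhibitor alpha-2-macroglobulin, was at 2.28 and 2.18 under DMSO, 29.1 and 31.2 at 24 h, and 2.03 and 2.55 at 48 h, a fall of 3.25 ± 0.17 (adjusted p = 0.00102, and 0.000155 with the block). SERPINA3 thus ended below its DMSO libraries, whereas the 48 h libraries of A2M overlapped with its DMSO libraries. CFI (chr4:110652164-110723306, minus strand), the complement protease factor I, went from 2.84 and 3.16 under DMSO to 9.98 and 11.5 at 24 h and 0.602 and 0.61 at 48 h, and fell by 2.87 ± 0.17 (adjusted p = 0.0015, and 0.000185 with the block). SOCS3 (chr17:76352859-76356158, minus strand), the feedback inhibitor that STAT3 induces, had 7.15 and 5.46 FPKM under DMSO, 16.7 and 13.5 at 24 h, and 2.37 and 1.6 at 48 h. Its fall was 2.44 ± 0.22 (adjusted p = 0.00669, and 0.000155 with the block).

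Further genes, also on no list, were looked up after these values had been seen. C1S, a protease of the first complement component, was at 22.7 and 25 FPKM under DMSO, 70.2 and 79.9 at 24 h, and 35.6 and 37.7 at 48 h (change -1.01, adjusted p = 0.0382, and 0.000787 with the block). Its partner C1R changed by -1.03 (adjusted p = 0.0382, and 0.00192 with the block). STAT3 itself had 43.8 and 47.3 under DMSO, 68.9 and 79 at 24 h, and 40.3 and 42.9 at 48 h, and fell with the block only (-0.81 ± 0.13, adjusted p = 0.0793, and 0.00145 with the block). These genes had their highest values at 24 h and were back near or below DMSO at 48 h, except C1R and C1S, which stayed above it. OSMR, the oncostatin M receptor, fell with the block only, from 21.2 and 26.7 to 10.4 and 12.9 FPKM (adjusted p = 0.142, and 0.00108 with the block). IL6ST, the shared receptor chain, had a change of -0.25 and JAK1 of -0.01, and neither passed with or without the block.

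MHC class II genes formed a further group. Of 12 tested members of a list on MHC and antigen presentation, 2 fell without the block and 5 with it, with a median of -0.78. CD74 (chr5:149781200-149792532, minus strand), the invariant chain that escorts class II molecules, was among the most abundant transcripts, at 1124 and 941 FPKM under DMSO, 1351 and 1163 at 24 h, and 313 and 289.5 at 48 h. It fell by 2.05 ± 0.14 (adjusted p = 0.00305, and 0.000135 with the block). CIITA (chr16:10960079-11036878, plus strand), the transactivator of class II genes, went from 8.85 and 8.93 to 2.38 and 1.82 FPKM, with 9.35 and 7.89 under DMSO, and fell with the block only (-1.68 ± 0.18, adjusted p = 0.016, and 0.001 with the block). The DMSO and 24 h levels of CIITA overlapped, and both 48 h libraries were far below them. HLA-DQA1 (chr6:32595956-32614839, plus strand), a class II alpha chain, was at 19.6 and 16.5 FPKM at 24 h and 2.71 and 2.41 at 48 h and fell by 2.42 ± 0.17 (adjusted p = 0.00305, and 0.000356 with the block). HLA-DRB5 (chr6:32485130-32498064, minus strand), a beta chain that is not on the list, had 105 and 97.6 at 24 h and 36.9 and 36.5 at 48 h, a fall of 1.44 ± 0.13 (adjusted p = 0.00654, and 0.000252 with the block). HLA-DQB1 (-1.37) and HLA-DRB1 (-1.07) fell with the block only.

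Values of single HLA genes are uncertain, since these genes have near-identical copies and alternative haplotypes among which reads can be split or lost. Of the 25 genes on the list, 12 were listed at 0 in all 6 libraries, among them HLA-C, HLA-E, TAP1, HLA-DPA1, and HLA-DMA, and HLA-DRA was listed at 1.75 and 2.98 FPKM at 24 h. CD74 and CIITA lie on chromosomes 5 and 16, outside that region. Class I was measured less well. B2M, the light chain of class I, had 1063 and 1140 FPKM at 24 h and 724 and 902 at 48 h (change -0.45, adjusted p = 0.539, and 0.0121 with the block). Of the factors that CIITA works with, looked up afterwards, RFX5 changed by -0.24 and RFXANK by 0.21, and neither passed. Of the 10 leukocyte markers, 7 were under 1 FPKM in all 6 libraries, PTPRC and CD14 among them. The others were CD68 (48.3 and 58.5 FPKM at 24 h, 76.7 and 83.4 at 48 h), LYZ (1.62 and 1.40, then 0.680 and 0.455), and FCER1G (1.43 and 0.592, then 0.936 and 0.307), and their part in the class II levels was not tested. Of 35 interferon-stimulated genes tested, 0 passed without the block (9 were lower at an unadjusted p below 0.05 in limma) and 2 fell with it, DTX3L (-0.80) and IFITM2 (-0.67), and the list median was -0.27.

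The promoters of 3 of these genes, again the 150 bases before the start in GRCh38.p14, are shown with the CCAAT box in capitals. Class II promoters hold a CCAAT box known as the Y box, which in the DRB and DQA genes stands in the reverse orientation. Whether the matches shown, that of CD74 included, are Y boxes was not determined.
CD74 (chr5:150412911-150413060, minus strand): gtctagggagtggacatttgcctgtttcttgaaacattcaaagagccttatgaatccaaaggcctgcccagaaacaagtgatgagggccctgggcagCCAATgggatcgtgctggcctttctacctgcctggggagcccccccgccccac
HLA-DQA1 (chr6:32637256-32637405, plus strand): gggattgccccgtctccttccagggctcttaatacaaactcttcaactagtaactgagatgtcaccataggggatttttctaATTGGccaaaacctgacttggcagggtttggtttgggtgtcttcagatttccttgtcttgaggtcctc
HLA-DRB5 (chr6:32530288-32530437, minus strand): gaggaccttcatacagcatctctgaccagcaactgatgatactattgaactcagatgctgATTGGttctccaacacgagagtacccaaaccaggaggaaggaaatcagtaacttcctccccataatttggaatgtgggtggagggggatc
Each held 1 CCAAT box, which began 53 bases before the start in CD74, 68 in HLA-DQA1, and 90 in HLA-DRB5. CCAAT is common, and its presence here is a description only.

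**Figure D3:**
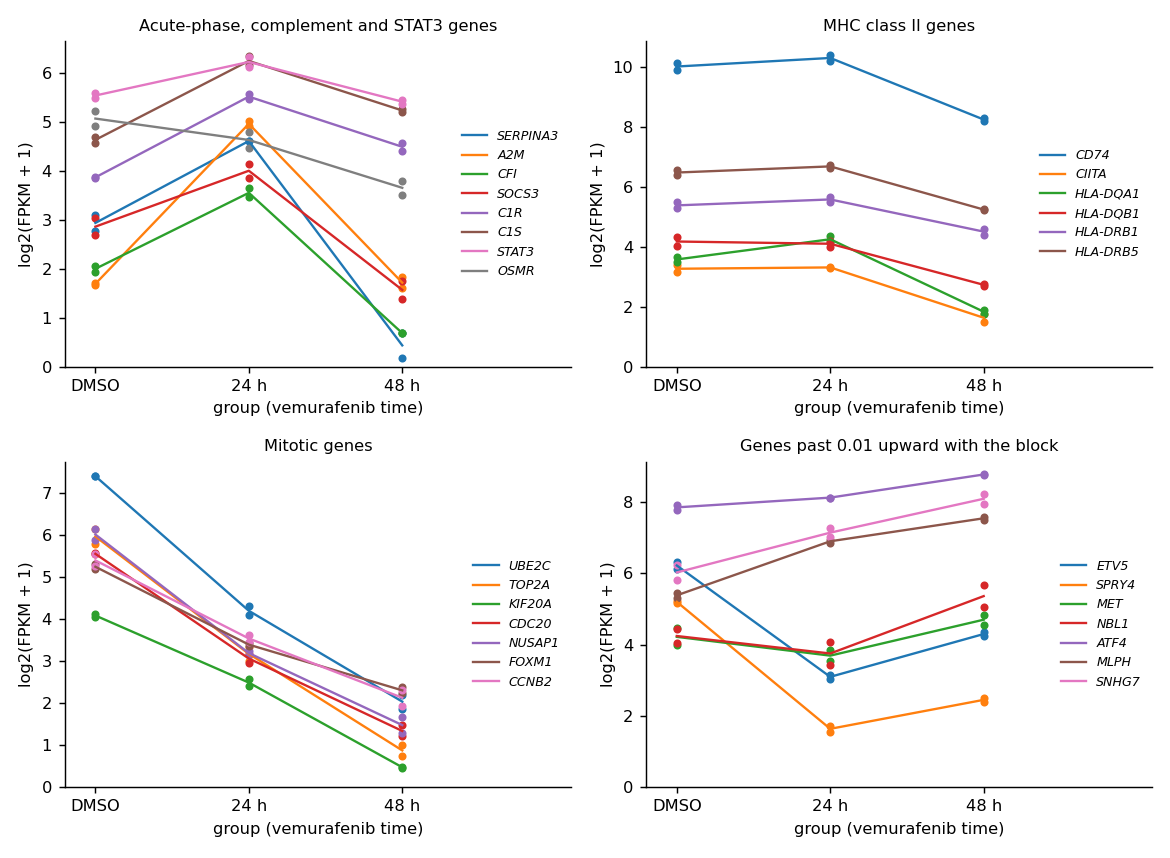
Level, as log2(FPKM + 1) on the vertical axes, under DMSO and at 24 and 48 h (horizontal axes) of 4 sets of named genes in MMACSF; points are the 2 libraries of each group and lines join group means. SERPINA3, A2M, CFI, and SOCS3 are highest at 24 h, MHC class II genes are lower at 48 h than at 24 h, mitotic genes step down at both times, and ETV5 and SPRY4 rise at 48 h from a low level at 24 h.

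The remaining genes that fell without the block encode mostly secreted or surface proteins. The share of such genes among all genes tested was not counted. ENPP2, the secreted enzyme autotaxin that makes lysophosphatidic acid, was at 13.2 and 15.8 FPKM under DMSO, 39.2 and 45.8 at 24 h, and 7.19 and 8.81 at 48 h, and fell by 2.27 ± 0.17 (adjusted p = 0.00416, and 0.000155 with the block). TNC (chr9:117781854-117880486, minus strand), the matrix glycoprotein tenascin-C, stepped down from 156 and 153 under DMSO to 29.8 and 31.9 at 24 h and 7.76 and 8.08 at 48 h, a second fall of 1.84 ± 0.13 (adjusted p = 0.00305, and 0.000155 with the block). ECM1 (chr1:150480538-150486265, plus strand), another matrix protein, went from 118 and 109.7 under DMSO to 48.6 and 43.5 and then 12.6 and 12.6, and fell by 1.79 ± 0.13 between the 2 times (adjusted p = 0.00352, and 0.000155 with the block). Thus ENPP2 peaked at 24 h, while TNC and ECM1 declined throughout. ANGPTL7 (chr1:11249412-11256038, plus strand), a secreted angiopoietin-like protein, was at 0.116 and 0.211 FPKM under DMSO, 9.51 and 10.5 at 24 h, and 2.02 and 1.76 at 48 h (change -1.93 ± 0.17, adjusted p = 0.00654, and 0.00109 with the block). Its 48 h libraries were still above both DMSO libraries. GLDC (chr9:6532467-6645729, minus strand), the decarboxylase of the glycine cleavage system, went from 4.26 and 5.1 to 0.598 and 0.596 FPKM (change -1.83 ± 0.17, adjusted p = 0.00766, and 0.000787 with the block). CD48 (chr1:160648536-160681621, minus strand), a surface protein of the SLAM family, was at 3.58 and 4.94 at 24 h and 0.19 and 0 at 48 h (change -2.26 ± 0.20, adjusted p = 0.00654, and 0.00212 with the block). LOC645591, a locus with no assigned function in the files, changed by -1.57 ± 0.14 (adjusted p = 0.00654, and 0.000307 with the block).

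With the block, other matrix and mesenchymal genes passed in both directions. Of 16 tested members of an EMT and mesenchymal list, TNC fell without the block, FN1 (-0.98) and NOV (-1.22) fell with it, and VIM rose with it (0.41). FN1, fibronectin, was at 701 and 826 FPKM at 24 h and 366 and 407 at 48 h (adjusted p = 0.0382, and 0.00108 with the block). VIM, vimentin, had 2991 and 2332 at 24 h and 4026 and 3080 at 48 h (adjusted p = 0.759, and 0.00719 with the block). Of 20 collagen and matrix genes, MGP (-1.12), LUM (-0.95), and LAMA1 (-0.76) fell and LAMB2 (0.43) rose, all with the block only, and the list median was -0.05. LUM is also a fibroblast marker, and its part in the change of other matrix genes was not tested. The BMP targets ID3 and ID1 changed by -1.71 and -1.18, again past the threshold with the block only. ID3 shows what the block does, with 101 and 51.4 FPKM at 24 h and 27.5 and 16.5 at 48 h, where the second library was lower than the first at both times (adjusted p = 0.254, and 0.000307 with the block). NNMT, nicotinamide N-methyltransferase, picked out after its values were seen, went from 3.1 and 3.84 FPKM at 24 h to being listed at 0 in both 48 h libraries, and passed with the block only (adjusted p = 0.0112, and 0.00245 with the block). The transcription factors RUNX1 (-1.41), also picked out afterwards, and FOS (-1.50) fell with the block, and FOS was at 4.74 and 4.82 FPKM at 24 h and 1.19 and 0.916 at 48 h.

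Only RNU12 rose without the block. RNU12, the U12 small nuclear RNA of the minor spliceosome, was listed at 0 in all DMSO and 24 h libraries and at 11.1 and 11.5 FPKM at 48 h (adjusted p = 0.000677, and 0.000155 with the block). In COLO858 its replicates disagreed, with 6.19 and 0 FPKM under DMSO, 13 and 0 at 24 h, and 11.8 and 0 at 48 h. It is a short RNA without a poly(A) tail, which a poly(A)-selected library is not made to capture, and the part of depth or of poly(A) selection in its values was not tested. HIST1H4E, a histone gene of the same kind, was likewise listed at 0 until 48 h, when it was at 1.55 and 1.37 FPKM (adjusted p = 0.0216, and 0.00957 with the block). No fold is given for either.

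Among protein-coding genes that rose with the block, targets of ERK signaling were present. Of 15 tested members of a list of MAPK output genes, 13 had a positive change, 2 rose with the block, 0 without it, and the median was 0.30. At an unadjusted p below 0.05 in limma, 5 were higher without the block and 10 with it, and 0 were lower. ETV5, an ETS factor, was at 68.6 and 79.2 FPKM under DMSO, 7.17 and 7.9 at 24 h, and 18 and 19.4 at 48 h, and rose by 1.20 ± 0.15 (adjusted p = 0.0254, and 0.000712 with the block). SPRY4, a feedback inhibitor of the pathway, was at 35.1 and 36.4 under DMSO, 1.92 and 2.28 at 24 h, and 4.26 and 4.64 at 48 h, and rose by 0.81 ± 0.16 (adjusted p = 0.142, and 0.00567 with the block). Both remained far below DMSO. DUSP6, the ERK phosphatase, was at 11.7 and 12.7 FPKM at 24 h and 10.8 and 11.1 at 48 h, with a change of -0.15 that did not pass (adjusted p = 0.236 with the block). DUSP4 changed by 0.30, SPRY2 by 0.03, and MYC by 0.52, and none of these passed with or without the block.

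NBL1, a secreted BMP antagonist, had the largest change of any protein-coding gene that rose with the block, from 9.67 and 15.9 to 32.4 and 49.7 FPKM (change 1.61 ± 0.29, adjusted p = 0.102, and 0.000712 with the block). The table also lists a readthrough transcript, C1orf151-NBL1, which shares its exons and changed by 0.49, so how reads were divided between the pair is uncertain. MET, the receptor of hepatocyte growth factor, went from 10.5 and 13.4 to 22.5 and 27.7 FPKM, above its DMSO level of 14.7 and 21, and was the one receptor tyrosine kinase of 14 tested that passed (change 1.01 ± 0.22, adjusted p = 0.188, and 0.00176 with the block). GARNL3 rose with the block by 1.06, to 7.04 and 9.19 FPKM. ATF4, the factor of the amino acid response, had 279 and 279.6 FPKM at 24 h and 439 and 439 at 48 h, and rose with the block (change 0.65, adjusted p = 0.0967, and 0.00245 with the block). WARS, a tRNA synthetase on the same list, fell with the block (-0.88, adjusted p = 0.000722), and the median of the 26 genes was -0.01. Host genes of small nucleolar RNAs, looked at after their values were seen, also rose with the block, with changes of 0.95 for SNHG7, 0.88 for SNHG12, 0.69 for SNHG1, and 0.46 for GAS5.

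**Figure D4:**
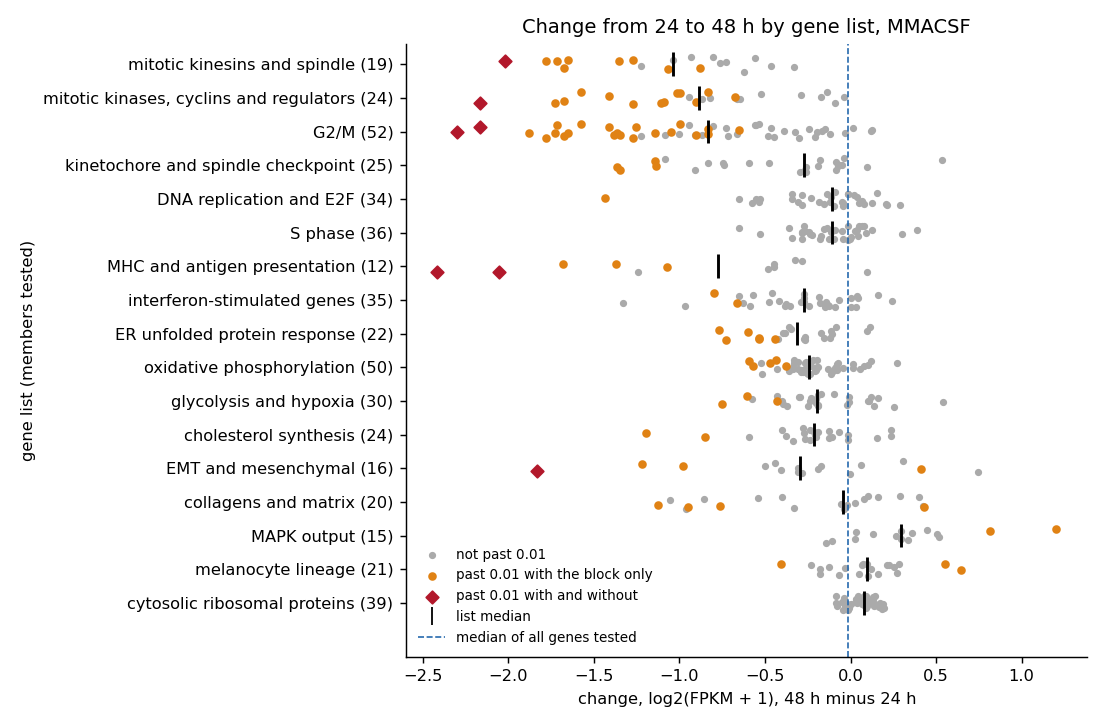
Change from 24 to 48 h in MMACSF on the log2(FPKM + 1) scale (horizontal axis) of each tested member of 17 gene lists (vertical axis, number tested in parentheses); vertical bars are list medians and the dashed line the median of all genes tested, -0.02. The mitotic lists and the MHC list lie furthest left, S phase genes lie close to the dashed line, and the MAPK output genes lie right of it.

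Genes of the endoplasmic reticulum and of energy metabolism had small negative changes. Of 22 genes of the unfolded protein response, 20 had a negative change, 6 fell with the block, 0 without it (8 were lower at an unadjusted p below 0.05 in limma), and the median was -0.31. The chaperone HSPA5, also called BiP, went from 160.2 and 161 to 106 and 105 FPKM (change -0.60, adjusted p = 0.142, and 0.00489 with the block). CALR (-0.77), HSP90B1 (-0.73), MANF (-0.54), PDIA3 (-0.53), and PDIA6 (-0.44) completed the 6. Of 50 subunits of oxidative phosphorylation, 43 had a negative change and 5 fell with the block, with a median of -0.24. These were NDUFA4 (-0.59), COX6C (-0.57), COX7B (-0.47), ATP5G3 (-0.44), and ATP5B (-0.38). Of 30 glycolysis and hypoxia genes 3 fell with the block, LDHA (-0.61), PKM2 (-0.75), and PGK1 (-0.43), and the median was -0.20. LDHA, lactate dehydrogenase A, was at 589.8 and 700.4 FPKM under DMSO, 286 and 326 at 24 h, and 189.7 and 211 at 48 h, and so declined at both steps. Ribosomal protein genes had a median of 0.08 over 39 genes, and 0 passed in limma, with 8 higher at an unadjusted p below 0.05 with the block and 0 without it.

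Pigment cell genes changed little. The 21 genes of the melanocyte lineage had a median change of 0.10, and 0 passed in limma without the block, where 2 were higher and 1 lower at an unadjusted p below 0.05. MITF, the master factor of the lineage, was at 195 and 249 FPKM at 24 h and 209 and 268 at 48 h (change 0.10, adjusted p = 0.998), and SOX10 was at 356 and 262 and 407 and 327. With the block, MLPH, the melanosome transport protein melanophilin, rose from 122 and 116 to 192 and 182 FPKM (0.65, adjusted p = 0.00206), CDH1, E-cadherin, rose by 0.55 (adjusted p = 0.0096), and GPNMB fell by 0.40 (adjusted p = 0.00828). NGFR, the neurotrophin receptor that marks the neural crest-like state, was at 0.529 and 0.357 FPKM at 24 h and 0.861 and 0.594 at 48 h. It did not reach the level for testing within MMACSF. AXL, with 0.557 and 0.477 FPKM at 48 h, and THBS1, with 0.0872 and 0.107, were also below it. JUN, the AP-1 subunit, changed by 0.23 ± 0.26 (adjusted p = 0.971, and 0.313 with the block), with 24 h libraries at 28.4 and 16.6 FPKM and 48 h libraries at 27.8 and 23.7. Lists of integrins, the BCL2 family and caspases, p53 targets, Wnt and Notch genes, DNA repair, actomyosin and YAP targets, ion channels, and MYC and ribosome biogenesis genes had 0 members past the threshold with or without the block.

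Whether these changes were particular to MMACSF was tested by comparing its 24 to 48 h change with that of COLO858 as an interaction over all 12 libraries. Of 12940 genes tested, the change was more negative in MMACSF for 365 (2.82%) and more positive for 73 (0.564%) at an adjusted p below 0.01. With the block the numbers were 1279 (9.88%) and 1038 (8.02%), including all 438 called without it. The tables of the lines come separately, and each line was compared only with itself.

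Cell cycle genes were prominent among the genes called, and the list medians were positive in COLO858 and negative in MMACSF. The G2/M list had a median change of 1.71 in COLO858 and -0.83 in MMACSF, and 40 of its 54 genes were called more negative in MMACSF. The S phase list had a median of 1.97 in COLO858 and -0.09 in MMACSF, and 27 of 43 were called more negative. Of 26 mitotic kinases, cyclins, and regulators, 24 were called, and in this direction in every case. UBE2C went in COLO858 from 20.3 and 15.2 to 123 and 114 FPKM while it fell in MMACSF, a difference of -4.85 ± 0.23 (adjusted p = 1.61e-05, and 1.25e-06 with the block). TYMS, with a change of -0.65 in MMACSF, went from 8.34 and 6.59 to 44.5 and 46.1 FPKM in COLO858, a difference of -3.11 ± 0.19 (adjusted p = 3.06e-05). The change within COLO858 was not tested on its own.

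The acute-phase and class II genes differed among themselves in this respect. SERPINA3 in COLO858 went from 278 and 279.6 to 20.6 and 21.8 FPKM, and the difference between the lines of -0.52 ± 0.25 did not pass (adjusted p = 0.326, and 0.11 with the block). A2M went from 4.75 and 6.18 to 7.6 and 9.12 FPKM in COLO858, and the difference was -3.78 ± 0.22 (adjusted p = 3.02e-05). SOCS3, at 5.77 and 4.14 and then 3.71 and 2.66 in COLO858, differed by -1.93 ± 0.33 (adjusted p = 0.00701), and CFI by -2.68 ± 0.30 (adjusted p = 0.000728). CD74 was at 0.769 and 0.499 FPKM in COLO858 at 24 h and 0.458 and 0.635 at 48 h, so its difference of -1.98 ± 0.21 (adjusted p = 0.000488) rests on a gene that COLO858 hardly expressed. The change of TNC was more negative in MMACSF, with a difference of -1.70 ± 0.14 (adjusted p = 0.000136), and FN1, which fell with the block in MMACSF, changed by 0.62 in COLO858, a difference of -1.59 ± 0.16 (adjusted p = 0.000312).

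For some genes a difference between the lines was not detected. ANGPTL7 changed by -1.43 in COLO858, FOS by -1.40, and RUNX1 by -1.88, and the differences from MMACSF were -0.50 ± 0.18, -0.10 ± 0.20, and 0.46 ± 0.20, none of which passed the threshold with or without the block. A difference that misses the threshold does not show that the lines acted alike. ETV5 had a change of -0.27 in COLO858, and the difference of 1.47 ± 0.21 passed (adjusted p = 0.00244). For MET the difference of 1.18 ± 0.33 passed only with the block (adjusted p = 0.068, and 0.000218 with the block). NGFR, THBS1, and AXL met the level for testing only through COLO858, so no p-value is given for them. In COLO858, NGFR went from 1.96 and 1.36 FPKM at 24 h to 49.9 and 39.8 at 48 h. THBS1 went there from 45.2 and 44.2 to 209 and 221, and AXL from 4.41 and 4.16 to 2.72 and 2.64.

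**Figure D5:**
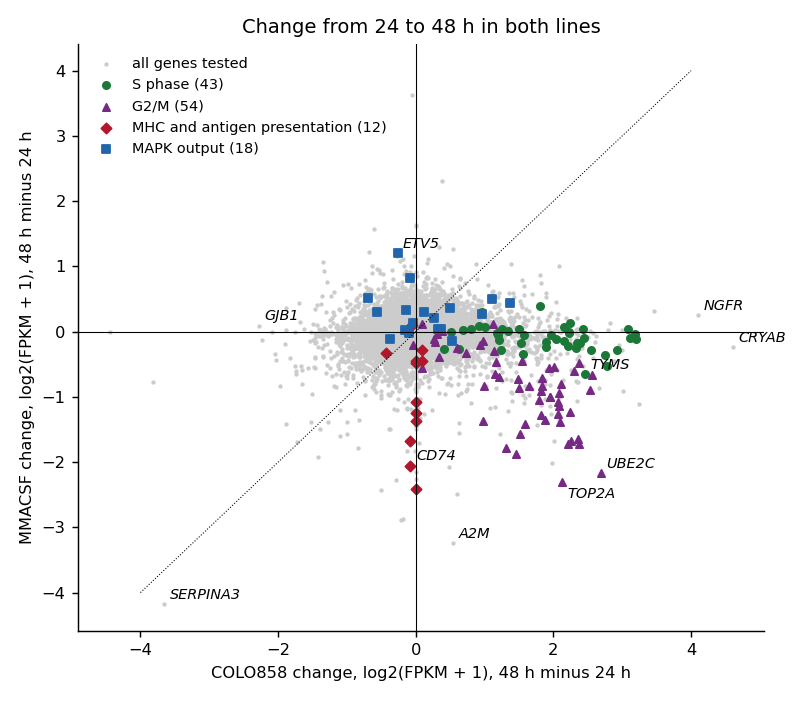
Change from 24 to 48 h on the log2(FPKM + 1) scale in COLO858 (horizontal axis) and MMACSF (vertical axis) for 12940 genes; coloured points are members of 4 lists, and the dotted line marks equal change. G2/M genes lie at lower right, with list medians of 1.71 and -0.83, S phase genes lie to the right near 0 on the vertical axis, and SERPINA3 lies at lower left.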

How the data were processed

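RNA was sequenced in 12 libraries, 6 of MMACSF. Per the study's methods, the authors made stranded poly(A) libraries, aligned with TopHat (default options) to hg19, and ran Cuffdiff. The deposited values, listed as normalized, were taken as FPKM. Tool versions and gene annotation are not given in the sources used here. Reads were not recovered, so depth is known only in relation to the first DMSO library, from the value of 1 read in genes up to 0.3 FPKM, which carries the scaling of Cuffdiff.

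All 6 MMACSF libraries entered 1 model of 3 groups in limma 3.58.1 (R 4.3.3) on log2(FPKM + 1), with a variance trend and 3 residual degrees of freedom (2 with the block). Two-sided p-values were corrected by Benjamini-Hochberg across the genes tested, and 0.01 was the threshold. The lines were compared as an interaction over 12 libraries in 6 groups. Errors are standard errors of the fit without the block. The check of the pairing compared how far libraries with 1 number lay from the mean of their group, and these deviations correlated at 0.600 to 0.686 between groups.

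Members and lists were chosen with earlier results of these data known. Named were all genes past the threshold, list members past it (up to 6, else the 3 largest in each direction, or the extremes where none passed), genes the study discusses, the 5 largest changes in each direction with the block, and the 5 largest line differences in each direction. Other genes are said to have been looked up afterwards or serve as list examples. Promoters are RefSeq windows in GRCh38.p14, the first listed for a symbol, and gene positions are from GENCODE v44 in GRCh37, the build of the files. Scripts were tested on simulated data. Some results are not reported here. Alternatives are given in the closing section.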

Additional observations from a re-analysis of the deposited data

Results flagged for a closer look

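The changes of 10 genes between 24 and 48 h differed most between the lines when tested as an interaction, 5 in each direction. More negative in MMACSF were UBE2C (difference -4.85, adjusted p = 1.61e-05, and 1.25e-06 with the block), CRYAB (-4.84, adjusted p = 1.91e-06, and 3.97e-07 with the block), TOP2A (-4.42, adjusted p = 9.24e-05), MYBL2 (-4.34, adjusted p = 3.02e-05), and NUSAP1 (-4.09, adjusted p = 8.10e-05). UBE2C, TOP2A, MYBL2, and NUSAP1 are cell cycle genes with a positive change in COLO858, untested on its own, that fell in MMACSF, MYBL2 and NUSAP1 with the block only. CRYAB, a small heat shock protein, had 1.36 and 1.53 FPKM in COLO858 at 24 h and 56.3 and 61.2 at 48 h, and in MMACSF 489 and 512 and then 426 and 425.

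More positive in MMACSF were RNU6ATAC (4.45, adjusted p = 3.02e-05), GJB1 (2.37, adjusted p = 0.000777), FAM78B (2.25, adjusted p = 0.00851), GDPD5 (2.14, adjusted p = 0.00151), and SYT17 (2.11, adjusted p = 0.000335). In each case the larger change was that of COLO858. GJB1, the gap junction protein connexin 32, went there from 5.86 and 5.2 to 0.523 and 0.181 FPKM, while in MMACSF it had 10.1 and 8.37 at 24 h and 11.3 and 8.61 at 48 h. RNU6ATAC, a small nuclear RNA without a poly(A) tail, was listed at 0 in every MMACSF library compared and in both COLO858 libraries of 48 h, so its value depends on the constant added. FAM78B, GDPD5, and SYT17 changed by 0.37, 0.44, and -0.13 in MMACSF and by -1.88, -1.69, and -2.24 in COLO858.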

How the results depend on the processing

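The number of calls depended on the settings. Among genes named by the rule that passed the threshold with or without the block, no direction reversed. The direction of the other named genes was not followed across the settings. Against 17 genes lower and 1 higher at 48 h, the replicate block gave 187 and 60. Fitting only the 4 libraries compared with the block gave 0 and 0 in limma (1564 and 1082 at an unadjusted p below 0.05), with 1 residual degree of freedom. No minimum level gave 5 and 2, a minimum of 10 FPKM gave 11 lower, adding 0.01 FPKM gave 0 higher (273 at an unadjusted p below 0.05), and keeping the small RNA genes gave 14 higher. Leaving out 1 library at a time gave 2 to 17 lower genes and 1 to 1 higher, with 5 and 4 lower when replicate 1 or 2 of 24 h was left out, 2 when either replicate of 48 h was, and 17 when a DMSO library was. SERPINA3 and A2M stayed past the threshold in 15 of 16 alternatives, and the exception was the fit of 4 libraries with the block. CFI passed in 13, RNU12 in 14, and the other 14 genes in 4 to 11. The G2/M median of -0.84 was -1.08 and -1.11 with 0.1 or 0.01 FPKM added, -0.31 at a minimum of 10 FPKM, and -0.92 to -0.68 with a library left out; that of S phase was -0.15 to -0.05. For the line difference, 365 more negative and 73 more positive genes became 1279 and 1038 with the block. They became 743 and 369 with the block and only the libraries compared, and 24 were more positive with only those libraries and no block. Leaving out 1 MMACSF vemurafenib library gave 184 to 236 more negative and 15 to 29 more positive genes. Libraries of COLO858 were not left out in turn. Depth per library is unknown, so low values carry counting error that cannot be stated.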

Other observations

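Several further genes passed with the block only and were picked out after their values were seen. Binding proteins of insulin-like growth factors went in both directions. IGFBP5 was at 4.29 and 4.61 FPKM at 24 h and 1.09 and 1.07 at 48 h (change -1.39, adjusted p = 0.0196, and 0.00192 with the block), and IGFBP2 changed by -1.36 (adjusted p = 0.00395 with the block). IGFBP3 rose from 96.9 and 95.9 to 157 and 141 FPKM (change 0.62, adjusted p = 0.142, and 0.00355 with the block). EFNA1, a ligand of Eph receptors, was highest at 24 h, with 9.4 and 6.99 FPKM under DMSO, 29.7 and 32.5 at 24 h, and 12.9 and 12.9 at 48 h (adjusted p = 0.046, and 0.00544 with the block).

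Other genes that rose toward 48 h had already been above DMSO at 24 h. CITED1, a transcriptional coregulator expressed in melanocytes, was at 11.6 and 10.3 FPKM under DMSO, 46.5 and 47.8 at 24 h, and 87.3 and 84.9 at 48 h (change 0.86, adjusted p = 0.0599, and 0.00206 with the block). BCAN, the proteoglycan brevican, was at 60.9 and 45.3 under DMSO, 244 and 179 at 24 h, and 412 and 331 at 48 h (change 0.82, adjusted p = 0.306, and 0.0011 with the block). MCAM, a melanoma adhesion molecule, instead had 166 and 165 under DMSO, 119 and 121 at 24 h, and 170.5 and 158 at 48 h, and so stood at its DMSO level again (change 0.45, adjusted p = 0.285, and 0.00795 with the block).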
